A study of Homo sapiens with 6 samples.

Results

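The SLC25 family of mitochondrial carriers was followed in HK2, an immortal cell line derived from human proximal tubule, exposed to tris(2-butoxyethyl) phosphate (TBOEP). TBOEP is an organophosphate, added to floor polishes and plastics as plasticiser and flame retardant. Members described here were protein-coding genes whose symbol starts with SLC25, together with UCP2, a family member named as an uncoupling protein. This gave 45 genes, held in 46 rows of the expression table because SLC25A6 occurred in 2 rows, of 15303 protein-coding rows in all. The treated cells received 20 µM TBOEP for 48 hours once confluent and gave 3 RNA-seq libraries. The other 3 libraries came from the same line with DMSO alone, at a dose and for a time that are not labelled. Values were FPKM, fragments scaled by gene length and library size, and the reads behind them came to 32547856 to 38247579 per library.

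SLC25 proteins are small carriers, nearly all in the inner mitochondrial membrane, that exchange nucleotides, phosphate, organic acids, amino acids, metals and cofactors between the cytosol and the mitochondrial matrix. The inner membrane is otherwise closed to these compounds, so each carrier links a matrix pathway to its cytosolic supply. Proximal tubule cells depend strongly on mitochondrial ATP to reabsorb the glomerular filtrate, and also use these carriers for ammonia production from glutamine and for glucose synthesis.

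The ADP/ATP carrier SLC25A5, the phosphate carrier SLC25A3 and the uncoupling-type carrier SLC25A14 were higher in all 3 TBOEP libraries, by factors of 1.99, 1.58 and 1.80 in mean FPKM. The dicarboxylate carrier SLC25A10, the glutathione carrier SLC25A39 and UCP2 were lower in all 3 TBOEP libraries. Of the 45 members, 31 reached 1 FPKM in at least 3 of 6 libraries and were tested with limma on log2(FPKM + 1), with p-values adjusted over all 9631 tested genes. At an adjusted p under 0.05, 9 rose, 10 fell and 12 were not called, while 26.9% of all tested genes were called higher and 26.9% lower (53.8% in either direction). TBOEP and DMSO libraries did not overlap for 19 of the 31 tested members, against 62.3% of all tested genes. The median log2 fold change of the tested members was -0.0042 and that of all tested genes was -0.02. A change of at least 0.5 on the log2 scale was called for 3 members, SLC25A5, SLC25A14 and SLC25A3, and for 9.58% of all tested genes. With limma-voom, run on reads recovered from the FPKM, SLC25A10 (-0.51), SLC25A15 (0.53) and SLC25A33 (0.50) were also called at that size. The share of all tested genes at that size was not counted for limma-voom. So many genes of the whole table were called that the number of members called is not a result about the family.

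**Figure D1:**
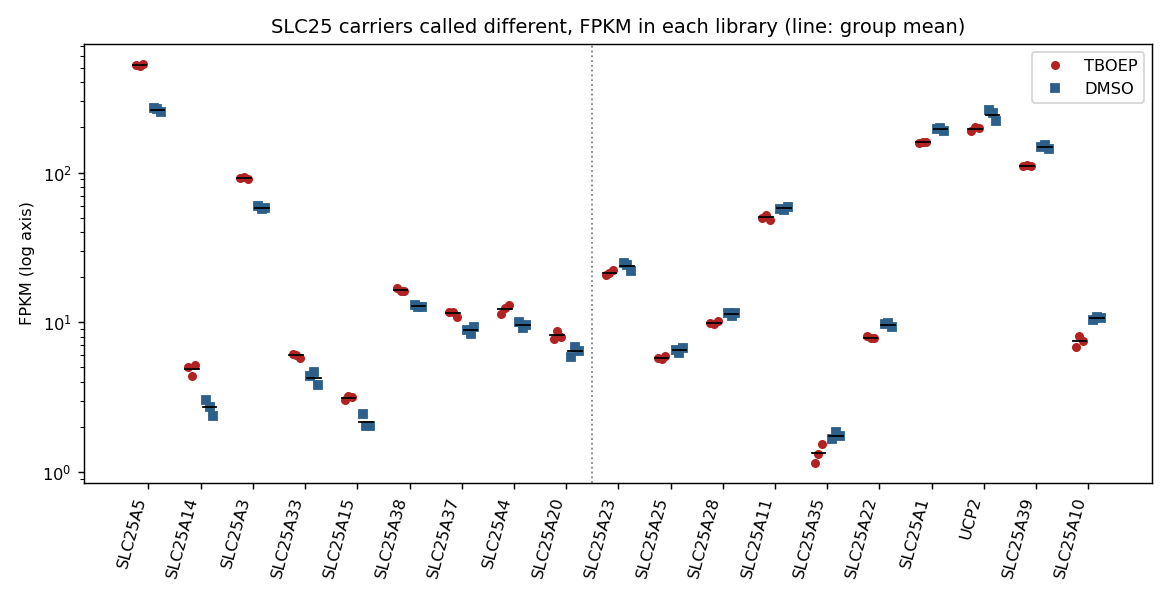
FPKM (log axis) of the 19 members called at an adjusted p under 0.05, with 1 point per library, TBOEP libraries left of DMSO libraries, and a line at each group mean. Members left of the dotted line rose, led by SLC25A5, and those right of it fell, with UCP2, SLC25A1 and SLC25A39 as the most abundant. SLC25A23 is the member whose groups overlap.

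Promoters are shown for SLC25A5 and SLC25A14, which rose most, and for SLC25A39, a member that fell. Each runs from 250 bases before to 50 bases after the start of transcription in RefSeq (GRCh38.p14), 5′ to 3′ on the strand of the gene. Capitals mark matches, on either strand, to the GC box GGGCGG and the ETS motif CCGGAAG. SLC25A5 lies at chrX:119468194-119468493 (plus strand), SLC25A14 at chrX:130339669-130339968 (plus strand) and SLC25A39 at chr17:44324774-44325073 (minus strand).
SLC25A5: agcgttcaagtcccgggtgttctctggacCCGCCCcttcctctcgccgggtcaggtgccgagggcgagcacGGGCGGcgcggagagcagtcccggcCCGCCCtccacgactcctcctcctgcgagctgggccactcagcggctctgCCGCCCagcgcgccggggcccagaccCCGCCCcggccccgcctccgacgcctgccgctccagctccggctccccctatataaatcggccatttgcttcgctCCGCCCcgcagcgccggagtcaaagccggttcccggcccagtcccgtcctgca
SLC25A14: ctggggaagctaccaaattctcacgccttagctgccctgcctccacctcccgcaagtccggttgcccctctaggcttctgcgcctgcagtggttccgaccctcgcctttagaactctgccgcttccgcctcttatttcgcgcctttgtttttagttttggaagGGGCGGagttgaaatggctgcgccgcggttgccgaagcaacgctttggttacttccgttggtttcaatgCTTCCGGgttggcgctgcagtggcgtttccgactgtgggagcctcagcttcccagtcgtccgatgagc
SLC25A39: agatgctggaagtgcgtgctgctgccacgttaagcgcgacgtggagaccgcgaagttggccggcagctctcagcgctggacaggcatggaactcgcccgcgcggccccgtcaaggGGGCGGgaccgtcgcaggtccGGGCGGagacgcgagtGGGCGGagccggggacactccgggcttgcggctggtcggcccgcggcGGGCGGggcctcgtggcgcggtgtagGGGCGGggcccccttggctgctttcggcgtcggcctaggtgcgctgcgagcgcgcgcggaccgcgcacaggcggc
SLC25A5 held 6 GC boxes in 300 bases and SLC25A39 held 5, although one gene rose and the other fell. SLC25A14 held 1 GC box and 1 ETS motif. Promoters were found for 38 of the 45 members, in 50 sequences. A GC box occurred in 68% of them and in 45% of all 35116 promoters of the table, a CCAAT box (CCAAT) in 46% against 34.6%, and an ETS motif in 20% against 10.3%. The NRF1 motif, named for a regulator of many mitochondrial genes, occurred in 6% against 5.78%, and the ERR motif AAGGTCA in 2% against 3.92%. Among the members that rose, 6 of 8 promoters held a GC box and 4 of 8 an ETS motif, and among those that fell, 11 of 15 held a GC box and 2 of 15 an ETS motif. Both groups of promoters were GC-rich, with medians of 69.8% and 68.7% GC against 58.7% over the whole table. A motif match is a description of the letters and not evidence that a factor binds there.

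The adenine nucleotide carriers exchange cytosolic ADP for ATP made in the matrix. SLC25A5 (ANT2, ENSG00000005022), the form of growing cells, had the highest FPKM of all members in every library. That order rests on the lengths behind the FPKM, 1555 bases for SLC25A5 and 8896 for SLC25A3. In reads, SLC25A5 had 16050, 13821 and 14320 in DMSO. SLC25A3 had more there, at 20208, 17010 and 18492, as did UCP2, at 27543, 23186 and 21978. SLC25A5 had 523, 517 and 532 FPKM in the TBOEP libraries and 270, 265 and 255 FPKM in the DMSO libraries. Every TBOEP value was far above every DMSO value, and the log2 fold change was 0.99 ± 0.03 (SE, n = 3 each, limma adjusted p = 6.91e-08). SLC25A5 made up 40.4%, 39.6% and 40.5% of the summed FPKM of all members in the TBOEP libraries and 20.8%, 23.1% and 23.4% in the DMSO libraries. In bulk RNA a change in the number of cells of a kind and a change in RNA per cell cannot be told apart.

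SLC25A4 (ANT1), the form typical of heart and muscle, was far lower than SLC25A5 in FPKM. It had 11.3, 12.4 and 13.01 FPKM in the TBOEP libraries and 10.0, 9.19 and 9.56 FPKM in the DMSO libraries. The groups did not overlap, and the log2 fold change was 0.32 ± 0.06 (SE, limma adjusted p = 0.00149). Within libraries the ratio of SLC25A5 to SLC25A4 was 46.2, 41.6 and 40.9 in TBOEP and 26.9, 28.8 and 26.7 in DMSO. The exact two-sided permutation p was 0.1, the smallest that 3 against 3 libraries allow, and stayed 0.1 after adjustment over the 4 carrier pairs compared.

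SLC25A6 (ANT3) was erratic and gave no call. It had 7.04, 8.93 and 9.002 FPKM in the TBOEP libraries and 141, 10.7 and 11.3 FPKM in the DMSO libraries, from 392, 484 and 455 reads against 8366, 559 and 631 reads. DMSO replicate 1 alone stood apart, and the log2 fold change of -1.56 ± 1.17 (SE) had a limma adjusted p of 0.329. Without DMSO replicate 1 the difference was -0.37 with a limma adjusted p of 0.0213. SLC25A6 lies in the pseudoautosomal region, whose copies on the sex chromosomes are near-identical, and its second row held at most 4 reads in any library. How the counting divided reads between the rows is not given in the sources used here. The same library was also out of line for the ribosomal protein gene RPS2, named here after its values were seen, with 3.80, 2.05 and 1.72 FPKM in TBOEP and 147, 2.72 and 2.55 FPKM in DMSO. Another ribosomal protein gene picked in the same way, RPS9, stood apart in a different library, DMSO replicate 2, with 1.08, 0.786 and 1.01 FPKM in TBOEP and 1.14, 15.5 and 1.11 FPKM in DMSO. SLC25A6 moved the summed FPKM of the 3 adenine nucleotide carriers, of which it was 1.30%, 1.66% and 1.63% in TBOEP and 33.5%, 3.77% and 4.08% in DMSO.

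SLC25A3 brings phosphate, the other substrate of ATP synthesis, into the matrix, and also carries copper. It had 91.4, 93.2 and 91.1 FPKM in the TBOEP libraries and 59.4, 57.0 and 57.6 FPKM in the DMSO libraries. The groups were well separated, with a log2 fold change of 0.66 ± 0.03 (SE, limma adjusted p = 5.39e-07).

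**Figure D2:**
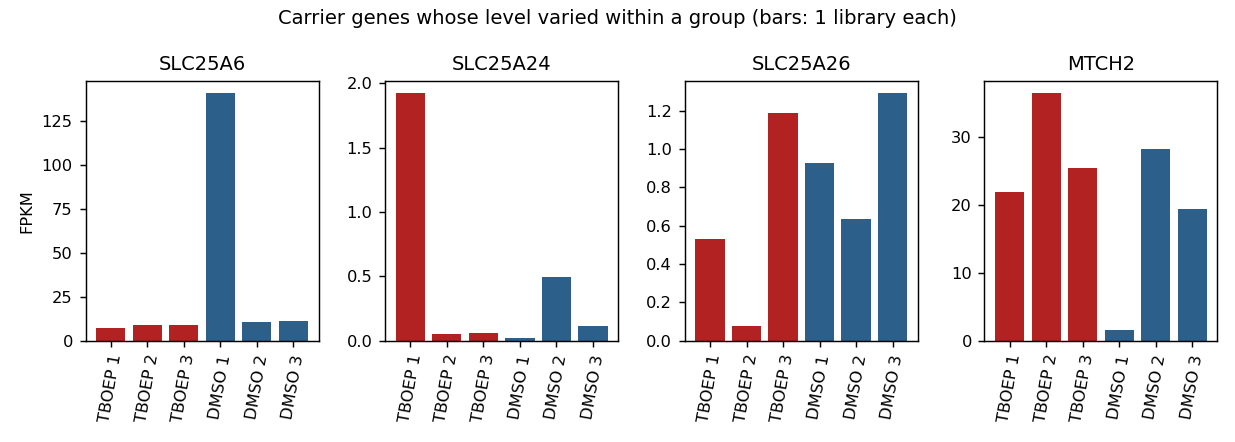
FPKM in each library, 1 bar per library, TBOEP left of DMSO, for 3 members and the related gene MTCH2 whose values varied within a group. SLC25A6 stands high in DMSO replicate 1 at 141 FPKM, the library in which MTCH2 stands low at 1.497 FPKM, and SLC25A24 stands high in TBOEP replicate 1 at 1.92 FPKM. MTCH2 was chosen after its values were seen.

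Of the 6 members grouped as carriers of citrate, dicarboxylates and oxoglutarate, 4 were tested and all 4 were called lower, against 26.9% of all tested genes. The group includes SLC25A35, whose substrate is uncertain, and all 4 have over 55% GC in their transcripts, where 32.7% (55% to 60% GC) and 64.6% (above 60% GC) of all tested genes were called lower. SLC25A1, the citrate carrier that exports citrate for fatty acid synthesis, had 158, 161 and 160 FPKM in the TBOEP libraries and 196, 198 and 188 FPKM in the DMSO libraries. The groups did not overlap, and SLC25A1 fell by 0.28 ± 0.03 in log2 units (SE, limma adjusted p = 5.35e-05). SLC25A10, the dicarboxylate carrier that exchanges malate and succinate for phosphate, had 6.82, 8.11 and 7.54 FPKM in the TBOEP libraries and 10.4, 10.9 and 10.6 FPKM in the DMSO libraries. It fell by 0.46 ± 0.06 (SE, limma adjusted p = 2.43e-04), the largest drop on the log2 scale among the called members. In GENCODE 29, 46.6% of the exon bases of SLC25A10 are shared with 1 other gene on the same strand, so some of its reads could belong to either gene.

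SLC25A11, the oxoglutarate/malate carrier of the malate-aspartate shuttle, had 49.7, 52.1 and 48.5 FPKM in the TBOEP libraries and 57.5, 56.4 and 58.9 FPKM in the DMSO libraries. It fell by 0.20 ± 0.04 (SE, limma adjusted p = 0.00145) with no overlap between the groups. SLC25A35, a low member, had 1.15, 1.33 and 1.54 FPKM in TBOEP and 1.66, 1.85 and 1.75 FPKM in DMSO, a log2 difference of -0.24 ± 0.08 (SE, limma adjusted p = 0.0268). Its call was lost without TBOEP replicate 1 (limma adjusted p = 0.0914), TBOEP replicate 2 (0.0642), DMSO replicate 2 (0.0803) or DMSO replicate 3 (0.0605). With limma-voom on the recovered reads its log2 difference was -0.40. SLC25A35 also shares 33.2% of its exon bases with a gene on the other strand, and whether counting used strand is not known.

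Adjusting for transcript GC content and length removed 3 of these 4 calls. Over all tested genes the 2 properties accounted for 34% of the variance of the log2 fold changes, and each library was therefore also fitted with a smooth surface of GC and length that was subtracted before the test. After this correction SLC25A1 stood at 0.06 (limma adjusted p = 0.0706), SLC25A10 at -0.15 (0.062) and SLC25A35 at -0.16 (0.0998). SLC25A11 remained called at -0.11 (limma adjusted p = 0.0404).

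The aspartate and glutamate carriers showed 1 call among 2 tested members, against 53.8% of all tested genes called in either direction. SLC25A22, a glutamate carrier, had 8.10, 7.82 and 7.80 FPKM in the TBOEP libraries and 9.78, 9.90 and 9.26 FPKM in the DMSO libraries. It fell by 0.26 ± 0.04 (SE, limma adjusted p = 0.00126) without overlap, and stood at -0.03 (limma adjusted p = 0.522) after the GC and length correction. SLC25A13 (citrin), the aspartate-glutamate carrier of liver and kidney, had 8.73, 7.59 and 7.96 FPKM in TBOEP and 8.37, 7.19 and 8.02 FPKM in DMSO. These values overlapped, with a log2 fold change of 0.04 ± 0.07 (SE, limma adjusted p = 0.657), and the correction turned it to -0.19 (limma adjusted p = 0.034). SLC25A12, the partner form of muscle and brain, had at most 7 reads in any library.

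Of the 4 enzymes of the malate-aspartate shuttle, which works through SLC25A11 and the aspartate-glutamate carriers, 3 rose, against a background of 26.9%. MDH1, the cytosolic malate dehydrogenase, rose by 0.53 ± 0.04 (log2, SE, limma adjusted p = 5.71e-06), and the aspartate aminotransferases GOT2 and GOT1 rose by 0.39 and 0.37. The summed FPKM of the 4 enzymes was 172 to 174 in TBOEP and 142 to 148 in DMSO. After the GC and length correction MDH1 stood at 0.18 (limma adjusted p = 0.00151), GOT1 at 0.14 (0.0354) and GOT2 at 0.04 (limma adjusted p = 0.353), and MDH2, the matrix malate dehydrogenase, which was not called before at 0.01 (limma adjusted p = 0.768), stood at -0.26 (limma adjusted p = 2.76e-04).

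Carriers of carnitine esters, ornithine and glycine rose. SLC25A20 takes long-chain acylcarnitines into the matrix for oxidation, and had 7.69, 8.79 and 7.997 FPKM in the TBOEP libraries and 5.87, 6.87 and 6.41 FPKM in the DMSO libraries. It rose by 0.31 ± 0.07 (log2, SE, limma adjusted p = 0.00391). SLC25A15, the ornithine carrier of the urea cycle, had 3.01, 3.20 and 3.19 FPKM in TBOEP and 2.42, 2.04 and 2.03 FPKM in DMSO, and rose by 0.39 ± 0.07 (SE, limma adjusted p = 0.00119). SLC25A38, the glycine carrier that feeds haem synthesis, had 16.99, 16.3 and 16.1 FPKM in TBOEP and 13.1, 12.6 and 12.7 FPKM in DMSO, and rose by 0.34 ± 0.04 (SE, limma adjusted p = 1.13e-04). None of the 3 carriers overlapped between groups, which also held for 62.3% of all tested genes. At the GC content of SLC25A15 (45% to 50%), 47.3% of all tested genes were called higher. At that of SLC25A20 and SLC25A38 (50% to 55%), 41.4% were. After the GC and length correction none of the 3 carriers was called. SLC25A20 then stood at -0.00034 (limma adjusted p = 0.997), SLC25A15 at 0.06 (0.488) and SLC25A38 at 0.04 (0.432).

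Other amino acid carriers were not called. SLC25A29, a carrier of arginine and lysine, had 14.3, 14.4 and 15.2 FPKM in TBOEP and 16.7, 15.7 and 14.8 FPKM in DMSO, a difference of -0.10 ± 0.05 (log2, SE, limma adjusted p = 0.138). One TBOEP value lay above the lowest DMSO value, and without DMSO replicate 3 the difference was -0.14 (limma adjusted p = 0.0441). Rescaling the libraries also brought the call, at -0.14 by quantile normalization (limma adjusted p = 0.0355) and -0.16 by median centring (0.0305). SLC25A44, the carrier of branched-chain amino acids, had 4.34 to 4.65 FPKM in TBOEP and 4.35 to 4.59 FPKM in DMSO, a log2 difference of -0.0042 (limma adjusted p = 0.95), and stood at -0.18 (0.0149) after the correction.

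The mitoferrins, which import iron for haem and iron-sulphur cluster synthesis, moved in opposite directions. SLC25A37 (mitoferrin-1), best known from developing red cells, had 11.8, 11.7 and 10.9 FPKM in the TBOEP libraries and 8.86, 8.40 and 9.37 FPKM in the DMSO libraries. SLC25A28 (mitoferrin-2), the widely expressed form, had 9.82, 9.73 and 10.1 FPKM in the TBOEP libraries and 11.5, 11.0 and 11.5 FPKM in the DMSO libraries. Neither gene overlapped between groups. SLC25A37 rose by 0.34 ± 0.05 (log2, SE, limma adjusted p = 6.6e-04), and SLC25A28 fell by 0.18 ± 0.04 (SE, limma adjusted p = 0.00547). The ratio of SLC25A37 to SLC25A28 was above 1 in each TBOEP library, at 1.20, 1.21 and 1.08, and below 1 in each DMSO library, at 0.770, 0.762 and 0.811 (exact two-sided permutation p = 0.1, the smallest possible). After the GC and length correction SLC25A37 was still called higher, at 0.24 (limma adjusted p = 0.00332), and SLC25A28 was not called, at -0.05 (0.337).

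Glutathione is made in the cytosol and reaches the matrix through SLC25A39 and SLC25A40. SLC25A39 had 111, 112 and 111 FPKM in the TBOEP libraries and 149, 153 and 144 FPKM in the DMSO libraries. The groups lay well apart, and SLC25A39 fell by 0.41 ± 0.03 (log2, SE, limma adjusted p = 7.75e-06). After the GC and length correction the drop was still called but smaller, at -0.14 (limma adjusted p = 0.00136). SLC25A40 had 2.0003 to 2.27 FPKM in TBOEP and 2.18 to 2.46 FPKM in DMSO and was not called, at -0.05 (limma adjusted p = 0.512). The ratio of SLC25A39 to SLC25A40 was 48.7, 50.6 and 55.6 in TBOEP and 60.5, 70.0 and 65.6 in DMSO (exact two-sided permutation p = 0.1).

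The ATP-Mg/phosphate carriers SLC25A23 and SLC25A25 respond to cytosolic calcium and help set the size of the matrix adenine nucleotide pool. SLC25A23 had 20.6, 21.2 and 22.3 FPKM in the TBOEP libraries and 24.9, 24.0 and 22.1 FPKM in the DMSO libraries, which overlapped by 1 library. SLC25A25 had 5.74, 5.68 and 5.92 FPKM in TBOEP and 6.50, 6.25 and 6.69 FPKM in DMSO, which did not overlap. Both had a log2 difference of -0.14, with limma adjusted p = 0.04 for SLC25A23 and 0.0298 for SLC25A25. Neither call held when single libraries were left out: SLC25A23 lost it without TBOEP replicate 1 (limma adjusted p = 0.129), TBOEP replicate 2 (0.0944), DMSO replicate 1 (0.135) or DMSO replicate 2 (0.0978). SLC25A25 lost it without TBOEP replicate 1 (limma adjusted p = 0.0763), TBOEP replicate 2 (0.0891), DMSO replicate 1 (0.0751) or DMSO replicate 3 (0.0888). After the GC and length correction SLC25A25 stood at -0.22 (limma adjusted p = 0.0057) and SLC25A23 at -0.10 (0.105).

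The pyrimidine nucleotide carriers supply the matrix for mitochondrial DNA and RNA synthesis. SLC25A33 had 6.15, 6.09 and 5.81 FPKM in the TBOEP libraries and 4.34, 4.64 and 3.84 FPKM in the DMSO libraries. It rose by 0.41 ± 0.06 (log2, SE, limma adjusted p = 6.92e-04) without overlap, and by 0.28 (0.0103) after the correction. SLC25A36 had 2.10 to 2.43 FPKM in TBOEP and 2.16 to 2.83 FPKM in DMSO and was not called, at -0.05 (limma adjusted p = 0.611). The ratio of SLC25A33 to SLC25A36 was 2.53, 2.90 and 2.53 in TBOEP and 1.94, 2.15 and 1.36 in DMSO (exact two-sided permutation p = 0.1).

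None of the 3 tested cofactor carriers was called by limma or by limma-voom, and none had an unadjusted limma p under 0.05. SLC25A51, the carrier of NAD+, SLC25A42, a carrier of coenzyme A, and SLC25A16, a relative also linked to coenzyme A, had log2 differences of 0.12, 0.02 and 0.09 (limma adjusted p = 0.35, 0.794 and 0.357). Their FPKM lay between 1.247 and 2.22 in all 6 libraries, and the groups overlapped for each.

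The uncoupling group split. UCP2, which in other systems lowers the membrane potential or exports short dicarboxylates, was second to SLC25A5 by its mean FPKM. It had 189, 200 and 197 FPKM in the TBOEP libraries and 260, 250 and 220 FPKM in the DMSO libraries. The groups did not overlap, although the DMSO libraries spread more widely, and UCP2 fell by 0.31 ± 0.06 (log2, SE, limma adjusted p = 0.00402). SLC25A14 (UCP5) had 5.05, 4.40 and 5.22 FPKM in the TBOEP libraries and 3.04, 2.74 and 2.38 FPKM in the DMSO libraries. It rose by 0.67 ± 0.08 (SE, limma adjusted p = 1.71e-04) without overlap. After the GC and length correction both remained called and were smaller, UCP2 at -0.20 (limma adjusted p = 0.0219) and SLC25A14 at 0.29 (0.019). SLC25A30, a kidney-expressed relative, had 1.64 to 1.92 FPKM in TBOEP and 1.44 to 1.91 FPKM in DMSO, a log2 difference of 0.03 (limma adjusted p = 0.762).

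**Figure D3:**
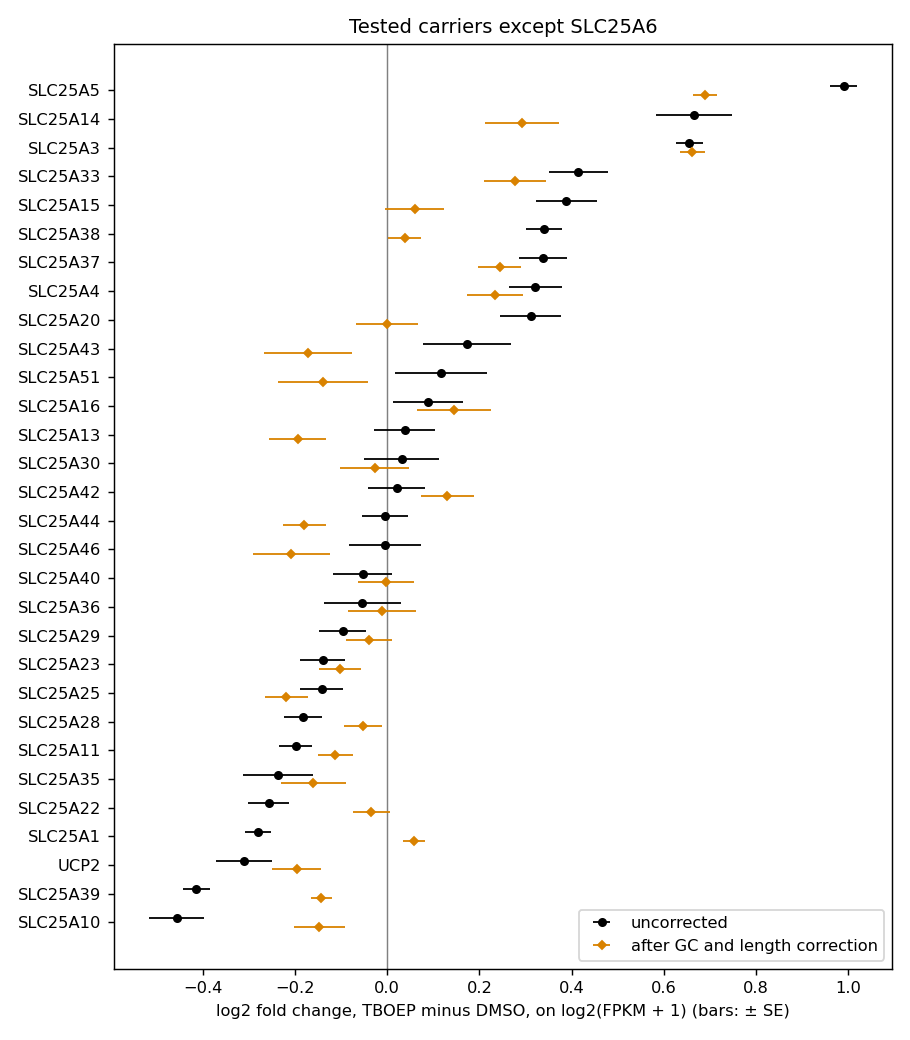
log2 fold change on log2(FPKM + 1), TBOEP minus DMSO, of 30 tested members (SLC25A6 left out), with bars of 1 SE. Circles are uncorrected and diamonds are after the GC and length correction, which left SLC25A3 in place at 0.66 and brought SLC25A20, SLC25A38 and SLC25A22 near 0.

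SLC25A46, which sits in the outer membrane and bears on mitochondrial shape, had 1.59 to 2.004 FPKM in TBOEP and 1.58 to 1.90 FPKM in DMSO, a log2 difference of -0.01 (limma adjusted p = 0.959). SLC25A43, whose substrate is not settled, had 4.44 to 5.02 FPKM in TBOEP and 3.49 to 4.88 FPKM in DMSO, at 0.17 (limma adjusted p = 0.161). Without DMSO replicate 1 it was called higher, at 0.28 (limma adjusted p = 0.0158), and after the GC and length correction it stood at -0.17 (0.177).

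The other 14 members did not pass the filter on low values and were not tested, and 9 of them had at most 15 reads in every library. SLC25A53 lay just below the filter, with 1.13, 0.999 and 1.03 FPKM in TBOEP and 0.754, 0.974 and 0.828 FPKM in DMSO. SLC25A26, the carrier of S-adenosylmethionine, and SLC25A24, an ATP-Mg/phosphate carrier, varied between libraries of the same group far more than the tested members other than SLC25A6. SLC25A26 had 415, 59 and 844 reads in TBOEP and 775, 466 and 1016 reads in DMSO. The length recovered behind its FPKM was 21792 bases, against 5850 exon bases in GENCODE 29, so its FPKM was low for its reads. SLC25A24 had 463, 12 and 12 reads in TBOEP and 6, 111 and 27 reads in DMSO. Some genes that most cells use, picked after their values were seen, were also under 1 FPKM in every library, namely POLR2A, PSMA2 and SDHB. A low value for SLC25A12, SLC25A24, SLC25A26 or SLC25A32 is therefore given as listed and not as absence of the transcript. The remaining members not tested were SLC25A2, SLC25A18, SLC25A21, SLC25A27, SLC25A34, SLC25A41, SLC25A45, SLC25A47 and SLC25A48, which all had at most 0.356 FPKM.

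The direction of change among the members went with the GC content of their transcripts. The 9 members that rose had 43.9% to 51.6% GC and the 10 that fell had 55.4% to 65.6% GC, so the 2 ranges did not meet. Across the 31 tested members, Pearson's r between log2 fold change and GC content was -0.551, or -0.512 over 30 members without SLC25A6. Over 9533 tested genes it was -0.318. All points share the same 6 libraries, so these correlations are descriptions. Between 45% and 50% GC, 5 of 6 members rose, among them SLC25A5, SLC25A14 and SLC25A33, as did 47.3% of all tested genes there. Between 55% and 60% GC, 6 of 7 members fell, among them SLC25A11 and UCP2, against 32.7% of all tested genes. Above 60% GC, where SLC25A1, SLC25A10, SLC25A22 and SLC25A39 lie, 4 of 6 members fell, against 64.6% of all tested genes, and none rose, against 0.969%. Whether the tie to GC content reflects the cells or the libraries was not tested.

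**Figure D4:**
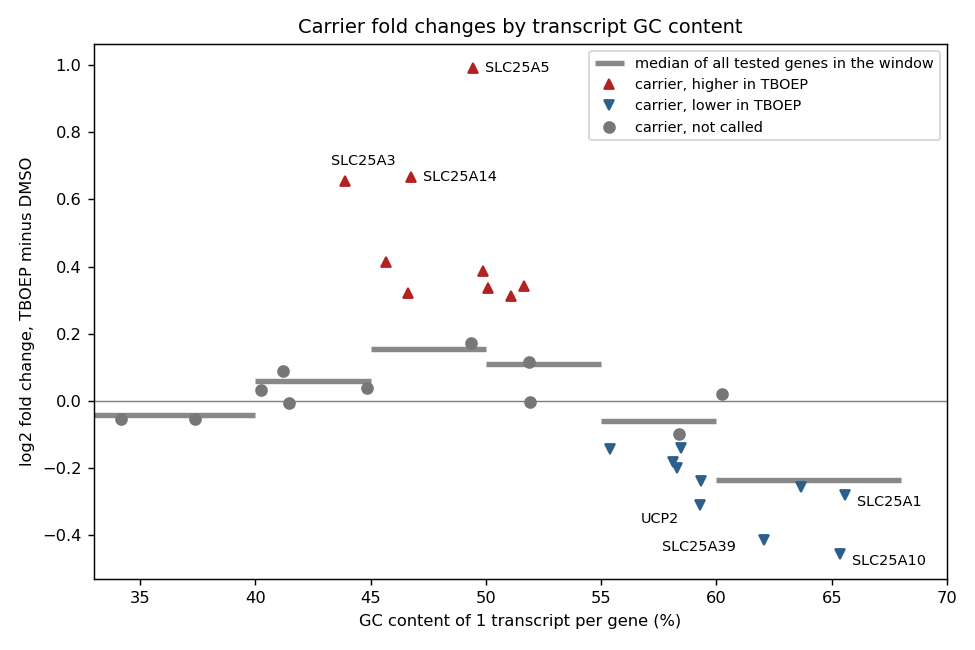
log2 fold change, TBOEP minus DMSO, against the GC content of 1 transcript per gene for 30 tested members (SLC25A6 left out), and the median of all tested genes in each GC window as grey bars. Members called higher lie at 43.9% to 51.6% GC and members called lower at 55.4% to 65.6% GC.

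After the GC and length correction, 6 members were called higher and 6 lower, against 20.6% and 23.4% of 9533 tested genes (44.1% in either direction). SLC25A3, SLC25A4, SLC25A5, SLC25A14, SLC25A33 and SLC25A37 remained higher, and SLC25A11, SLC25A25, SLC25A39 and UCP2 remained lower. SLC25A5 was then at 0.69 ± 0.03 (log2, SE, limma adjusted p = 6.58e-07) and SLC25A3 at 0.66 ± 0.03 (limma adjusted p = 8.58e-07). SLC25A4 was at 0.23 (limma adjusted p = 0.0138). No member called in both analyses changed direction. The other 9 calls were lost and 2 were gained, SLC25A13 and SLC25A44, both lower.

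Summed over all members, FPKM came to 1294, 1306 and 1314 in the TBOEP libraries and 1295, 1147 and 1089 in the DMSO libraries. The DMSO sum reached that of TBOEP only in replicate 1, the library with the high SLC25A6. By mean FPKM over the 6 libraries, SLC25A5 was followed by UCP2, SLC25A1, SLC25A39, SLC25A3 and SLC25A11. In TBOEP, UCP2 stayed above SLC25A1 in every library, at 189 to 200 against 158 to 161 FPKM, and in DMSO at 220 to 260 against 188 to 198 FPKM. SLC25A39 lay below SLC25A1 and above SLC25A3 in the FPKM of every library. These orders depend on the gene length used for each FPKM.

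A further list held mitochondrial transport genes under other symbols, among them UCP3, MTCH1 and MTCH2, which belong to the same protein family. Of 27 listed, 25 were in the table and 22 were tested, of which 9 rose, 3 fell and 10 were not called, with a median log2 fold change of 0.07. Over all tested genes 26.9% were called higher and 26.9% lower. Under the GC and length correction 4 of the list were called higher and 5 lower, against 20.6% and 23.4% of all tested genes. SFXN4, a sideroflexin, rose by 0.72 (log2, limma adjusted p = 2.57e-06), and by 0.38 after the correction. MCU, the pore of the calcium uniporter, rose by 0.59 (limma adjusted p = 3.64e-05), and by 0.38 after it. SFXN1, the serine carrier, rose by 0.45 (limma adjusted p = 3.16e-04), and by 0.38 after the correction (7.56e-04). TIMM10, a chaperone that escorts carrier proteins through the intermembrane space to their insertion, fell by 0.51 (limma adjusted p = 2.51e-05). After the correction TIMM10 stood at -0.60 (limma adjusted p = 3.87e-05).

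Markers of the labelled cell type were partly present. PAX8, a renal epithelial factor, was at about the same FPKM in both groups (limma log2 difference of -0.01), and 5 of the 9 proximal tubule markers in the table were under 1 FPKM in every library. The proximal tubule markers summed to 55.9 to 59.7 FPKM in TBOEP and 63.2 to 64.8 FPKM in DMSO. Of the 4 tested, 2 were called lower, against 26.9% of all tested genes. After the GC and length correction 1 of the 4 was called lower, against 23.4% of all tested genes. Epithelial markers summed to 743 to 762 FPKM in TBOEP and 833 to 869 FPKM in DMSO, with CDH1 near 0. The sum came mostly from KRT19 and KRT8, which fell by 0.19 and 0.31 (log2, limma adjusted p = 0.00124 and 1.64e-05). KRT18 rose by 0.22 (limma adjusted p = 3.53e-04), and EPCAM stood at 0.17 without a call (0.0527). With GC and length corrected for, KRT19 and KRT18 were higher, at 0.10 and 0.25, and KRT8 and EPCAM lower, at -0.53 and -0.21, all called. Endothelium markers summed to 25.0 to 27.2 FPKM in TBOEP and 33.8 to 35.2 in DMSO, nearly all from EGFL7 with CDH5 and PECAM1 near 0. Fibroblast markers summed to 22.2 to 22.4 in TBOEP and 25.9 to 29 in DMSO, nearly all from COL1A1 with DCN near 0. EGFL7 and COL1A1 were thus above the proximal tubule marker MIOX, which had means of 14.9 FPKM in TBOEP and 19.9 in DMSO. Both were below PAX8, of the same list as MIOX, which had means of 36.7 FPKM in TBOEP and 37.1 in DMSO. Podocyte markers summed to 9.68 to 9.84 FPKM in TBOEP and 8.82 to 10.3 in DMSO. That sum was nearly all from SYNPO, with PODXL under 1 FPKM in every library and NPHS1 near 0. Leukocyte markers summed to 1.24 to 1.35 in TBOEP and 1.20 to 1.71 in DMSO, nearly all from CSF1R with CD68 near 0. The part of these differences in the carrier changes was not tested.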

How the data were processed

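RNA of HK2 cells was profiled in 3 TBOEP and 3 DMSO libraries. Per the labels' protocols, RNA was extracted with TRIzol. The labels name 2 library kits without saying which libraries used which, so whether counting used strand is unknown. Whether the kit differed between TBOEP and DMSO libraries is also unknown. If it did, kit and treatment cannot be told apart in these data, and this was not tested. Trimmomatic and HISAT2 were used, per the submitters' processing notes, with versions, genome build, annotation and counting tool not given in the sources used here. The deposited table gave 1 value for each of 25808 genes, taken as FPKM because the authors' values were whole multiples of a step per gene. Whole reads were recovered for 25808 of 25808 genes within 0.01 reads. The labels do not say that replicates were separate cultures, so p-values measure only the spread between these libraries. No pair of replicates agreed within sampling noise.

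The test was limma 3.58.1 in R 4.3.3, two-sided, with trended and robust moderation, on log2(FPKM + 1), keeping genes that reached 1 FPKM in 3 or more of the 6 libraries, with Benjamini-Hochberg adjustment over 9631 genes. A fold change on this scale understates the change of low genes. The GC and length correction (mgcv 1.9.3) subtracted a smooth surface fitted in each library, using 1 transcript per gene of GENCODE 29, known for 99% of tested genes. The read recovery and the limma test were tried on simulated data, and the GC and length correction was not. Gene names matched 25795 IDs. Members and lists were chosen with earlier results of these data known, and every member may be named. Other transport genes are named by the 4 smallest p-values. Genes picked after their values were seen are said to be so. Some further genes of the family are not reported here, and SLC25A31 and SLC25A52 were not analysed here. Promoter sequences came from RefSeq (GRCh38.p14). Alternatives were other scalings, filters, pseudocount, moderation and libraries, a replicate block, limma-voom and protein-coding genes alone.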

Additional observations from a re-analysis of the deposited data

How the results depend on the processing

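Under 17 alternatives the 19 called members kept their direction wherever they were tested, except SLC25A1 (0.058) and SLC25A20 (-0.00034) after the GC and length correction. That correction was also the setting that moved a count of called members by over 1.5 times, with 6 called lower in place of 10. With the replicate number as a block, 9 members were called higher and 8 lower, and 4791 genes in all. Deviations of same-numbered libraries had correlations of 0.105, -0.033 and 0.007 for replicates 1 to 3. Pairs with unlike numbers ranged from -0.1121 to 0.1035. With 3 libraries per group these values cannot settle whether the numbers pair the libraries. Leaving out each library in turn gave 9 to 10 members called higher, 7 to 10 called lower and 4556 to 4774 genes called. Other settings gave 3714 genes called (filter at 5 FPKM) to 5533 (limma-voom).

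Members that were not called turned direction in these settings. SLC25A13 stood at -0.018 by quantile normalization and -0.022 by median centring, and at -0.19 after the GC and length correction. That correction also gave -0.027 for SLC25A30, -0.17 for SLC25A43 and -0.14 for SLC25A51, and median centring gave -0.028 for SLC25A30 and -0.039 for SLC25A42. Leaving out each library gave -0.018 to 0.080 for SLC25A13, -0.034 to 0.092 for SLC25A30, -0.11 to 0.032 for SLC25A36, -0.0062 to 0.044 for SLC25A42, -0.030 to 0.011 for SLC25A44 and -0.067 to 0.039 for SLC25A46. The cause was not tested. The edgeR quasi-likelihood alternative was not run; limma-voom was the test run on the recovered reads. At this depth 1 read on a gene of 1 kb was 0.0261 to 0.0307 FPKM, so members with a few reads allow no statement on their change.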
